A study of Mus musculus with 4 samples.

Results

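Somatostatin neurons of the mouse hypothalamus are described here as the nuclei that the authors placed in the sub-cluster of that name within their main neuronal cluster, Neurons_1. There were 83 and 119 of them in the wild-type libraries and 71 and 85 in the mutant ones, together 1.00% of the 35756 nuclei of Neurons_1 and 0.635% of all 56386 annotated nuclei. The nuclei came from 12 adult male mice on a C57/BL6NCr background. Of these mice, 6 were wild type and 6 were TRα1+m, heterozygous for an allele of thyroid hormone receptor α1 (Thra) in which an arginine is exchanged for a cysteine and which lowers the affinity for the hormone. The allele is present in every cell, so an effect in these neurons cannot be told apart from one that reaches them through other cells or through hormone levels. Each library was a pool of 3 mice, and each of 2 experimental repeats gave 1 library per genotype, so that n = 2 pools per genotype throughout. Among the 12 sub-clusters of Neurons_1 with at least 10 nuclei in every library, the transcript for which this one is named was highest in it on average, but Sst was neither restricted to these nuclei nor its leading gene.

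Somatostatin is an inhibitory peptide hormone that is cut from a precursor encoded by Sst. Periventricular somatostatin neurons of the hypothalamus release it into the portal blood, where it restrains growth hormone and thyrotropin secretion from the pituitary, and many other inhibitory neurons of the brain use it as a local transmitter. Its 5 receptors couple to inhibitory G proteins, which lower cyclic AMP and open potassium channels. Transcription of Sst is a textbook case of control by cyclic AMP, through a palindromic response element close to its start. Sst lies on the minus strand at chr16:23889573-23890958 of GRCm38, the build the files use (GENCODE M21 annotation). The 120 bases before the RefSeq start of the gene (chr16:23890845-23890964, GRCm38.p6, minus strand, from RefSeq) are shown because they carry that element, set in capitals. The GENCODE interval reaches further upstream than the RefSeq start and overlaps these bases.
Sst promoter: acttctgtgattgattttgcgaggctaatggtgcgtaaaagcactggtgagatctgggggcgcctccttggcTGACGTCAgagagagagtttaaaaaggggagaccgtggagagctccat
The element TGACGTCA begins 48 bases before the start. It reads the same on both strands, and 588 of 32851 RefSeq promoter windows of 300 bases each, which run from upstream of a start to a little past it, hold it (1.79%). The half-site AGGTCA, which nuclear receptors such as those for thyroid hormone can bind, was not found in the Sst window of that length on either strand and is present in 16.3% of the windows.

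The unique molecular identifiers (UMIs, each standing for a counted RNA molecule) of these nuclei summed to 358429 and 686291 in wild-type repeats 1 and 2, and to 282614 and 425197 in TRα1+m repeats 1 and 2. Median UMIs per nucleus were 3981, 5375, 3850 and 4883 in the same order, so that repeat 2 was deeper in both genotypes. Levels are given below as CPM, the UMIs of a gene scaled to a library sum of 1000000, in the order wild-type repeats 1 and 2, then TRα1+m repeats 1 and 2. A single UMI was worth between 1.46 and 3.54 CPM, and the limit that a count of 0 allows, 3 UMIs, lay between 4.37 and 10.6 CPM. Any pair of libraries shared between 62 and 91 barcodes, of which 44 to 64 belonged to kept nuclei of both.

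Sst itself was measured at 259, 1307, 283 and 1256 CPM in the somatostatin neurons. The level followed the experimental repeat and not the genotype: both libraries of repeat 2 stood far above both of repeat 1, and the genotypes overlapped. Among those 12 sub-clusters, this mean of 776 ± 584 CPM (SD, n = 4) was the highest. An unnamed sub-cluster, left out because a library held fewer than 10 of its nuclei, was at 60.5, 14.7, 53.5 and 10737 CPM. NPY/AgRP neurons came next with 289 ± 157 CPM, then GABA neurons with 250 ± 163 CPM, and these spreads over libraries overlap that of the somatostatin neurons. Within each library the order did hold, since Sst was 2.47, 3.34, 2.51 and 3.22 times as high in somatostatin neurons as in GABA neurons.

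The background of Sst also differed between repeats. Oligodendrocytes, myelin-forming cells that should lack Sst, carried 212, 61.9, 220 and 55.0 CPM, high in repeat 1 and low in repeat 2. The ratio of somatostatin neurons to oligodendrocytes was therefore 1.22 and 1.29 in the libraries of repeat 1, and 21.1 and 22.8 in those of repeat 2. In repeat 1 the marker that names the sub-cluster thus stood little above its level in oligodendrocytes, whose nuclei were shallower. It stood further above the other 11 neuronal sub-clusters, which in repeat 1 lay between 31.4 and 184 CPM, with CART Neurons_1, of like depth, at 73.7 and 77.7 CPM. What share of the UMIs of repeat 1 came from the nuclei themselves was not tested. The plot of Sst over sub-clusters shows the opposite order of the repeats in the glial types.

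**Figure D1:**
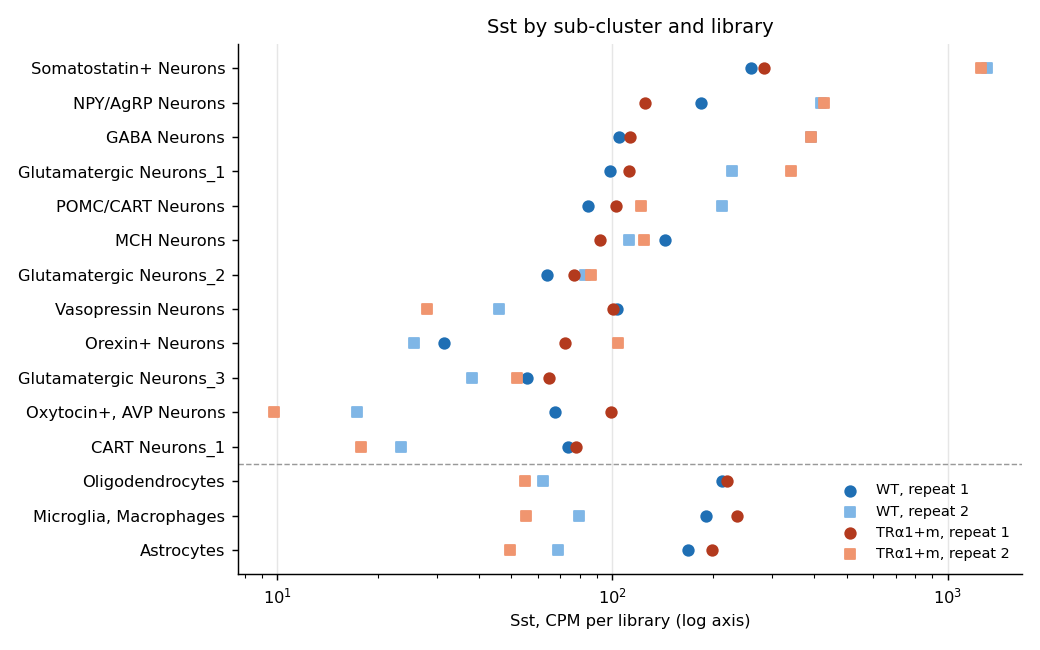
Sst in CPM (log axis) in each of the 4 libraries, for 12 neuronal sub-clusters and, under the dashed line, for 3 glial types. Somatostatin neurons reach 1307 and 1256 CPM in repeat 2 (squares) and 259 and 283 CPM in repeat 1 (circles), while the glial types are lower in repeat 2 than in repeat 1.

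Counted per nucleus, 60.2% (95% exact binomial interval 48.9 to 70.8) and 62.0% (49.7 to 73.2) of the somatostatin neurons of repeat 1 had an Sst UMI, against 93.3% (87.2 to 97.1) and 89.4% (80.8 to 95) in repeat 2. These intervals cover counting error only. After every nucleus was thinned to 2000 UMIs, which left out 7 somatostatin neurons, the expected shares were 37.2% and 43.1% in repeat 1 and 82.4% and 74.9% in repeat 2. Oligodendrocytes thinned in the same way, with 4702 of 6135 nuclei left out as too shallow, gave 28.6% and 28.4% in repeat 1 and 10.6% and 8.8% in repeat 2. Median depths before thinning were 4622.5 UMIs in somatostatin neurons and 1605 in oligodendrocytes.

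Few of the nuclei were rich in the peptide transcript. At least 10 Sst UMIs were found in 33 of 119 nuclei of wild-type repeat 2 (27.7%, 19.9 to 36.7) and in 14 of 85 of TRα1+m repeat 2 (16.5%, 9.31 to 26.1). None of the 83 and 71 nuclei of repeat 1 reached that count, which allows shares of up to 3.61% and 4.23% when the limit is set at 3 nuclei, and of up to 4.35% and 5.06% by the exact binomial interval used for the other shares. The highest single nucleus held 8 Sst UMIs in wild-type repeat 1, 37 in wild-type repeat 2, 4 in TRα1+m repeat 1 and 44 in TRα1+m repeat 2. Between genotypes the share averaged 13.9% ± 19.6 for wild-type and 8.24% ± 11.6 for TRα1+m libraries (SD, n = 2), and an exact permutation test over libraries, two-sided, gave p = 1. With 2 libraries against 2 that test cannot go below 0.33.

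**Figure D2:**
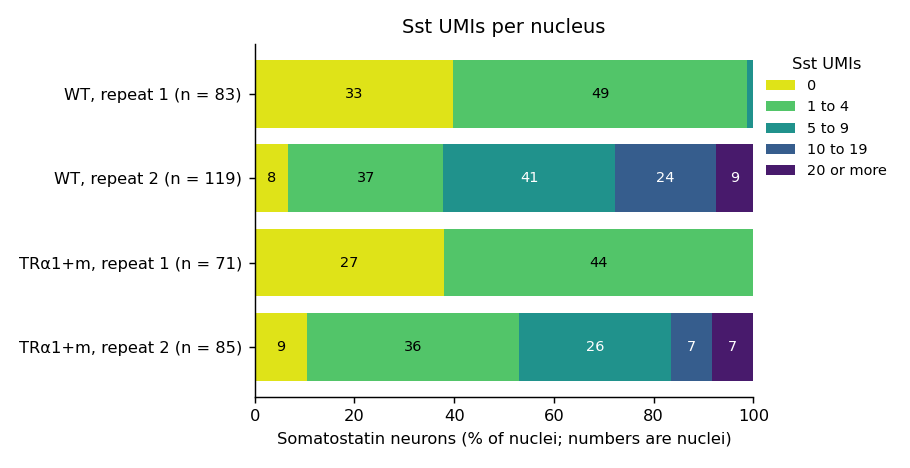
Share of the somatostatin neurons of each library (horizontal axis, % of nuclei) by the number of Sst UMIs in the nucleus, with numbers of nuclei printed in the bars. Nuclei with 10 or more UMIs are seen in both libraries of repeat 2 (33 and 14) and in neither library of repeat 1.

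Most nuclei rich in Sst carried other labels. Of the 499 Neurons_1 nuclei with at least 10 Sst UMIs, 47 (9.42%) were in the somatostatin sub-cluster, 277 among GABA neurons, 112 among Glutamatergic Neurons_1 and 20 among NPY/AgRP neurons. As a share of each label this was 13.1% of somatostatin neurons, 1.84% of GABA neurons and 1.80% of Glutamatergic Neurons_1. The 499 were spread over the libraries as 27, 247, 15 and 210, so they too came mostly from repeat 2. As a share of all Neurons_1 nuclei they made up 1.55% ± 1.80 for wild-type and 1.61% ± 2.08 for TRα1+m libraries (SD, n = 2, exact permutation p = 1, two-sided). Sst-rich GABA neurons of repeat 2 were higher in Sst, at 7542 and 7030 CPM, than the Sst-rich somatostatin neurons of the same libraries, at 2432 and 3088 CPM. Of the genes that lead the sub-cluster, Abi3bp was at 2.53 and 7.49 CPM in them against 171 and 238 CPM. Arhgap6 was at 264 and 172 CPM against 2584 and 2330 CPM, and Tacr1 differed less, at 74.5 and 91.4 CPM against 226 and 271 CPM. These genes were chosen as high over all other Neurons_1 nuclei, which include the Sst-rich GABA neurons. The choice thus favours such differences, and they are not a test.

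The leading genes of the sub-cluster were above the other Neurons_1 nuclei as a whole in every library, which the rule that chose them favours. They are listed by the lowest ratio, over the 4 libraries, of CPM in somatostatin neurons to CPM in all other Neurons_1 nuclei, among 2640 genes with at least 20 UMIs in every library. Since these genes could enter the authors' clustering, the ratios describe the sub-cluster and are not tested. Abi3bp, an extracellular matrix protein, led with 226, 154, 248 and 198 CPM and ratios from 24.6 to 58.1. Dnah11, a dynein heavy chain of cilia, followed at 106, 170, 106 and 190.5 CPM, higher in repeat 2 in both genotypes. The most abundant of the group in the nuclei was Arhgap6, a GTPase-activating protein, at 1864, 2004, 2325 and 2030 CPM with ratios from 13.9 to 16.4. Its UMIs were found in 97.8% of the nuclei, and in no library in fewer than 96.5%. The share was 2.90% to 5.30% over the libraries in oligodendrocytes and 30.7% to 36.1% in GABA neurons. Sst UMIs were found in 60.2% to 93.3% of the somatostatin neurons over the libraries. Arhgap6 was not limited to the somatostatin neurons, with 573 CPM on average in NPY/AgRP neurons.

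The other leading genes lay between 3.73 and 15.8 times the remaining neurons in every library. They included Lmo7, a LIM-domain protein of the actin cytoskeleton, the related GTPase regulator Arhgap10, and Bcl11b, a zinc-finger transcription factor of several inhibitory projection neurons. Receptors and kinases were Tacr1, the substance P receptor (218, 181, 237 and 296 CPM), Calcrl, the shared subunit of the CGRP and adrenomedullin receptors (126, 137, 234 and 151 CPM), the ephrin receptor Epha3, and the calcium-dependent kinase Ptk2b. Frmd6, Sntb1, Adamts3, Rhbdl3, Pdzd2, the G protein subunit Gng7, Pifo and the unnamed transcripts Gm42722, Gm15261 and Gm15810 made up the rest of the 20. Of these, Gm15261 was as high in NPY/AgRP neurons (351 ± 39.3 CPM) as in somatostatin neurons (352 ± 74.2 CPM). Sst ranked 40 in this order, with ratios from 2.78 to 5.85.

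**Figure D3:**
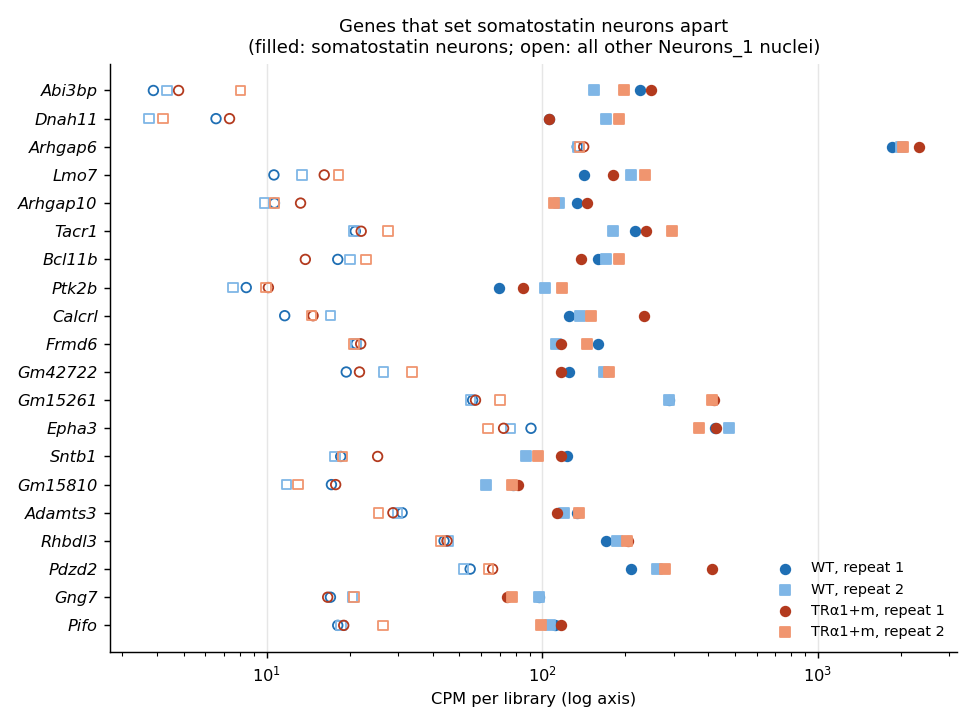
CPM (log axis) of the 20 genes with the highest lowest-over-libraries ratio, in somatostatin neurons (filled) and in all other Neurons_1 nuclei (open), for each of the 4 libraries. The filled and open points do not meet for any gene, and Arhgap6 lies near 2000 CPM in all libraries.

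Of the somatostatin receptors only Sstr2 was seen beyond a few UMIs, at 11.2, 36.4, 14.2 and 42.3 CPM from 4, 25, 4 and 18 UMIs, higher in both libraries of repeat 2. Its mean of 26.0 ± 15.7 CPM was the highest of the 12 sub-clusters, but overlapped that of NPY/AgRP neurons, 16.4 ± 10.6 CPM. Sstr1 had 0, 0, 1 and 2 UMIs, Sstr3 a single UMI, Sstr4 2 UMIs and Sstr5 none, and the related peptide gene Cort (cortistatin) 1 UMI. Downstream of the receptors, Adcy2, an adenylyl cyclase, was measured at 527, 539, 499 and 581 CPM, against 252 CPM on average in GABA neurons. CART Neurons_1 were at a like level of Adcy2, 529 ± 45.8 CPM. Kcnj3 and Kcnj6, potassium channel subunits opened by G proteins, were at 298 ± 82.5 and 127 ± 11.1 CPM, and Gnao1, an inhibitory G protein α subunit of neurons, at 214 ± 45.6 CPM. In GABA neurons these 3 were at 302, 114 and 220 CPM on average.

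The 13 listed genes of peptide processing and dense core vesicles summed to 3309, 3901, 3379 and 3570 CPM. On average the same list summed to 4948 CPM in GABA neurons, 3682 in astrocytes, 3394 in microglia and 2472 in oligodendrocytes. Pcsk2, a protease that cuts prohormones, was at 686, 627, 587 and 419 CPM, or 2.22 times the mean of GABA neurons. Cadps, which primes dense core vesicles for release, was at 705 ± 69.0 CPM against 959 CPM in GABA neurons. Its relative Cadps2 was at 8.37, 21.9, 7.08 and 25.9 CPM against 265 CPM. Pcsk1n, an inhibitor of prohormone cleavage, was at 570 ± 97.8 CPM and Pam, which amidates peptides, at 521 ± 43.8 CPM. Thus Pcsk2 stood above the level in GABA neurons in every library, whereas Cadps2 was low. GABA neurons ranked only 10 of the 12 sub-clusters for Pcsk2, however. The mean in somatostatin neurons, 580 ± 115 CPM, was below that of vasopressin neurons (800 ± 107 CPM) and CART Neurons_1 (634 ± 72.6 CPM). Glutamatergic Neurons_1 were at a like level, 572 ± 71.7 CPM.

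As to the fast transmitter, Gad2, which makes GABA, was at 218, 205, 219 and 235 CPM, close to the 266 CPM of GABA neurons. Gad1, the other GABA-making enzyme, was at 104 ± 26.6 CPM against 111 CPM. Slc32a1, which loads GABA into vesicles, again followed the repeat with 61.4, 136, 42.5 and 165 CPM, and did so in GABA neurons too, where 24.7% and 23.6% of nuclei of repeat 1 and 60.3% and 57.7% of repeat 2 had a UMI. Slc17a6, which loads glutamate, was at 25.1, 26.2, 17.7 and 4.70 CPM, below the 70.0 CPM of oligodendrocytes, and Slc17a7 and Slc17a8 had no UMI. The forebrain interneuron genes Dlx1, Dlx2, Dlx5 and Dlx6 stayed at or under 14.2 CPM in every library. Dlx6os1 was at 2.17 CPM on average against 75.7 CPM in GABA neurons.

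The most abundant other neuropeptides lay below their level in oligodendrocytes. Pmch, Oxt, Hcrt and Avp (the peptides of MCH, oxytocin, orexin and vasopressin neurons) averaged 239, 235, 158 and 134 CPM, below their 693, 382, 321 and 398 CPM in oligodendrocytes. A few nuclei held large amounts: 280 of the 364 Oxt UMIs of wild-type repeat 2 and 73 of the 123 Hcrt UMIs of wild-type repeat 1 sat in single nuclei. Without that nucleus Oxt in wild-type repeat 2 would be 123 in place of 530 CPM. Cartpt, the precursor of the feeding peptide CART, was at 64.2, 91.8, 149 and 202 CPM.

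Transcription factors that mark hypothalamic regions were modest. Isl1 and Zfhx3 were measured at 63.9 ± 8.15 and 53.5 ± 20.7 CPM, and Rorb at 49.9 ± 8.82 CPM. Zfhx3 was the lowest here of all 12 sub-clusters, which otherwise ran from 180 to 1933 CPM, and GABA neurons of the same library held at least 10.5 times as much. Otp, which specifies neuroendocrine neurons, was at 16.7, 33.5, 31.8 and 44.7 CPM against 6.97 CPM in GABA neurons. Lhx6, a factor of cortical somatostatin interneurons, had no UMI, nor had Lhx8, Lhx9 and Nr5a1. Among interneuron genes of the forebrain, Tacr1 and Calb1 (a calcium buffer) were above GABA neurons, with Calb1 at 195 ± 25.3 against 75.4 CPM. Calb1 was as high in CART Neurons_1 (198 ± 28.7 CPM), and Glutamatergic Neurons_2 were at 167 ± 14.3 CPM. Grin3a (153 ± 4.19 CPM) and Reln (64.7 ± 20.8 CPM) were not above the 225 and 73.4 CPM of GABA neurons, and Pvalb and Vip were at 2.19 and 1.95 CPM on average.

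Among hormone receptors, Nr3c2, the mineralocorticoid receptor, was the most abundant at 511, 382, 343 and 463 CPM, the highest of the 12 sub-clusters and above the 205 CPM of GABA neurons. Nr3c1, the glucocorticoid receptor, was at 124 ± 18.0 CPM, the insulin receptor Insr at 114 ± 10.1 CPM and the IGF1 receptor Igf1r at 93.5 ± 33.2 CPM. The growth hormone receptor Ghr was at 114, 96.2, 84.9 and 56.4 CPM, less than in GABA neurons (207 CPM) and much less than in NPY/AgRP neurons (2025 CPM). Ghsr and Stat5a had no UMI.

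The thyroid hormone genes are given as a description, since they could enter the clustering. Thrb, the β receptor, was at 527, 509, 545 and 513 CPM, or 523 ± 16.5, the highest of the 12. The next, POMC/CART neurons and Glutamatergic Neurons_2, were at 289 ± 55.2 and 289 ± 16.0 CPM, and no library of another of the 12 sub-clusters, taken whole, reached the somatostatin neurons. Sst-rich GABA neurons did reach them in the wild type, with Thrb at 551 and 594 CPM in repeats 1 and 2, and were at 391 CPM in TRα1+m repeat 2. In the Sst-rich somatostatin neurons of repeat 2 Thrb was at 443 CPM for wild-type and 531 CPM for TRα1+m. At 2000 UMIs per nucleus the expected share of nuclei with a Thrb UMI was 58.0% to 59.2% over the libraries, against 30.9% to 31.8% in GABA neurons and 4.9% to 10.7% in oligodendrocytes. Crym, a binding protein for thyroid hormone in the cytoplasm, was at 19.5, 35.0, 31.8 and 42.3 CPM from 7, 24, 9 and 18 UMIs, while the next sub-cluster, labelled Orexin+ neurons, was at 3.68 ± 1.02 CPM. Crym is also abundant in tanycytes. Rax, which defines those cells, had 3, 3, 0 and 2 UMIs here, and the part of tanycyte RNA in the Crym level was not tested.

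The receptor that carries the mutation had no fixed place among the sub-clusters. Thra was at 139, 134, 127 and 61.1 CPM, with TRα1+m repeat 2 the lowest. The mean of 116 ± 36.6 CPM lay between those of MCH neurons (135 ± 46.8 CPM) and POMC/CART neurons (109 ± 13.3 CPM), and the libraries overlapped with those of both. Within libraries Thra was the highest of the 12 in wild-type repeat 1 and TRα1+m repeat 1, below MCH neurons alone in wild-type repeat 2, and the lowest of the 12 in TRα1+m repeat 2. Ncoa2, Ncor1 and Ncoa1, coactivators and a corepressor of nuclear receptors, were at 257 ± 8.36, 256 ± 11.4 and 239 ± 31.2 CPM. Dio1 and Dio2, the deiodinases that activate the hormone, had no UMI, and Dio3, which inactivates it, had 1. Of genes known to respond to the hormone, Nrgn, a calmodulin-binding protein, was at 86.5 ± 13.0 CPM against 34.8 CPM in GABA neurons. Klf9, a zinc-finger factor, was at 43.2 ± 7.78 CPM against 32.3 CPM, and Camk4, a calmodulin-dependent kinase, at 128 ± 15.4 CPM against 136 CPM.

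**Figure D4:**
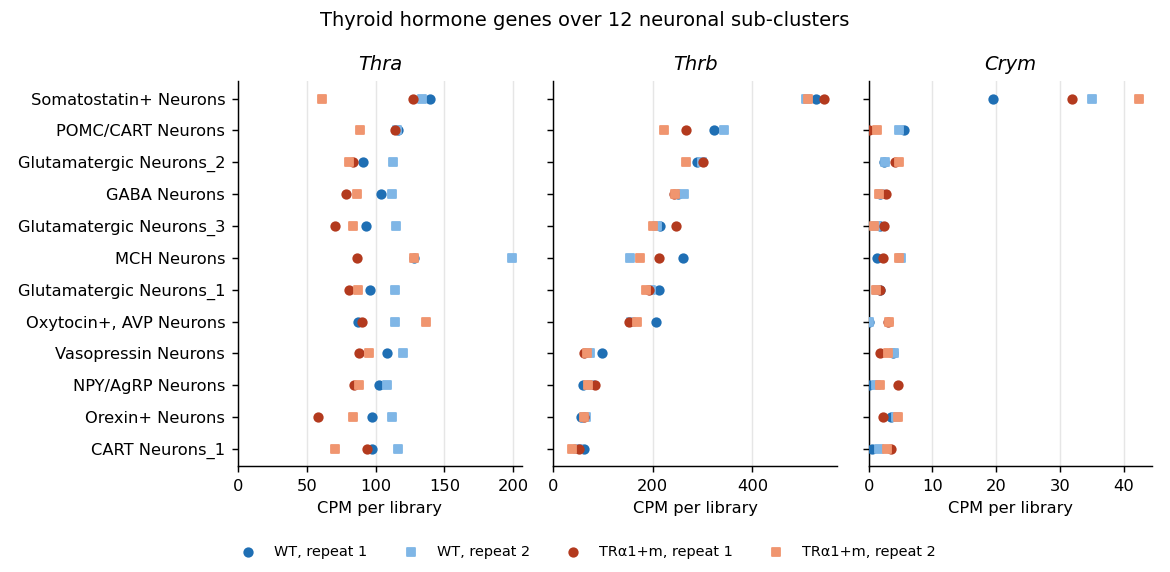
CPM of Thra, Thrb and Crym in each of the 4 libraries for 12 neuronal sub-clusters, ordered by Thrb, on linear axes that start at 0. Thrb lies between 509 and 545 CPM in somatostatin neurons and Crym between 19.5 and 42.3 CPM, above every library of the other sub-clusters, while Thra of the somatostatin neurons lies within the range that the others span over the 4 libraries.

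Nuclear purity was checked with marker lists of other cells. The 8 oligodendrocyte markers summed to 502, 546, 559 and 459 CPM, close to the 555 CPM of GABA neurons and far from the 19248 CPM of oligodendrocytes, with Mbp the most abundant. Microglial markers (led by P2ry12) summed to 83.7, 75.8, 92.0 and 68.2 CPM against 92.3 CPM in GABA neurons, and astrocyte markers (led by Slc1a2) to 229, 195, 364 and 188 CPM against 277 CPM. The highest astrocyte sum was in TRα1+m repeat 1. The 4 OPC markers, led by Ptprz1, summed to 259, 321, 425 and 423 CPM against 317 CPM. Pdgfra, which defines these precursors, had 2, 1, 2 and 0 UMIs, and the part of precursor RNA in the OPC sums was not tested. Endothelial and mural markers, led by Rgs5, summed to 5.58, 16.0, 31.8 and 7.06 CPM against 17.4 CPM in GABA neurons. The tanycyte list, led by Crym, summed to 50.2, 53.9, 49.5 and 56.4 CPM, above the 24.8 CPM of GABA neurons. Pituitary markers, led by Cga, gave at most 5.83 CPM, and Gh, Prl, Lhb and Fshb had no UMI. The neuronal genes Meg3, Syt1 and Snap25 were at 8939 ± 1191, 2912 ± 147 and 1318 ± 249 CPM, and Homer1 (106 ± 18.0 CPM), Egr1 (8.0 ± 6.2 CPM) and Junb (7.34 ± 1.58 CPM) led the immediate early genes.

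Within the sub-cluster, the 47 nuclei with at least 10 Sst UMIs were compared with 304 others at 2000 UMIs per nucleus, as a description over 6721 genes. The largest differences in the expected share of nuclei with a UMI were those of Serinc1 (21.8 percentage points), Grina (19.7), Lmo7 (19.1), Atp6ap2 (18.9) and Pth2r (17.6). Since all 47 came from repeat 2, the same difference was taken against the 153 other nuclei of that repeat. It then fell to 12.2 points for Serinc1 and to 9.50 for Atp6ap2, but stayed at 16.2 for Lmo7 and 15.6 for Pth2r, a receptor for a hypothalamic peptide. Atp1b1, Itm2c, Zdbf2, Atp6v0c and Tecr completed the 10, with differences from 15.5 to 17.3 points over all libraries and from 2.06 to 15.8 within repeat 2. In Serinc1 the difference was 23.1 points in wild-type repeat 2 and -5.74 in TRα1+m repeat 2, so the pools went opposite ways.

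The number of somatostatin neurons was then compared between genotypes. They formed 0.868% (95% exact binomial interval 0.692 to 1.07) and 1.36% (1.13 to 1.63) of Neurons_1 nuclei of the wild-type libraries, against 0.669% (0.523 to 0.843) and 1.25% (0.996 to 1.54) for TRα1+m. In both repeats the mutant was the lower, and the difference between repeats within a genotype was the larger. edgeR on numbers of nuclei per sub-cluster gave a log2 fold change of -0.22 ± 0.48 (SE, 95% interval -1.37 to 0.92, adjusted p = 0.992 over the sub-clusters).

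Gene expression was compared between genotypes in UMI sums per library. No gene was called in edgeR's quasi-likelihood test at an adjusted p of 0.05: 0 of 6450 genes tested, or 0%, with 146 at an unadjusted p below 0.05. DESeq2 also called 0 genes, with 20 at that unadjusted p. Over all genes the median log2 fold change was 0.0005, the 5th and 95th percentiles were -0.56 and 0.59, and the median SE was 0.35. With the experimental repeat as a block, 2 genes were called (0.031% of 6450), both higher in the mutant. They were Gm38505 and AC149090.1. Gm38505, a long non-coding RNA, was at 92.1, 67.0, 283 and 153 CPM (block log2 fold change 1.35, adjusted p = 0.0489 in edgeR). It was at 136, 69.8, 164 and 104 CPM in GABA neurons and at 46.3, 35.0, 98.3 and 94.6 CPM in oligodendrocytes. In these types too the mutant was the higher within each repeat. AC149090.1 was at 611, 326, 1072 and 616 CPM (block log2 fold change 0.82, adjusted p = 0.0276 in edgeR).

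AC149090.1 lies on an unplaced scaffold of the assembly, so that reads shared with a copy elsewhere could be counted in either. It was the one gene of those that the study singled out in neurons to be called under the block, and since that choice was made on these libraries it is not independent evidence. Within each repeat the mutant was higher, by 1.75 and 1.89 times, but the wild type of repeat 1 and the mutant of repeat 2 were nearly equal. GABA neurons showed the same order, with 466, 243, 962 and 607 CPM, and the test of the difference between the types gave an adjusted p of 1.

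The genes nearest to the threshold that moved the same way in both repeats are given by name, although none passed it in the fit on genotype alone over the 4 libraries (adjusted p = 0.9995 in edgeR for each). Some passed when that fit was altered: Gm38505 without the filter on low counts (adjusted p = 0.0206) and without TRα1+m repeat 2 (7.9e-05), Rbfox1 without TRα1+m repeat 2 (0.0491), and Efna5 without TRα1+m repeat 1 (0.0431). On the higher side in the mutant, Efna5, a ligand of ephrin receptors, was at 67.0, 56.8, 131 and 174 CPM (log2 fold change 1.29 ± 0.29, SE). Sox2ot, a long non-coding RNA around Sox2, was at 388, 430, 761 and 661 CPM. In oligodendrocytes, where it is more abundant, it was at 1290, 1415, 1755 and 2083 CPM. Pde10a, a cyclic nucleotide phosphodiesterase, was at 416, 546, 853 and 753 CPM. Mlip and Ddx31 rested on few molecules, with 6, 10, 20 and 18 UMIs and 4, 8, 12 and 17 UMIs. Gm38505, Cartpt, Gm48321, Shisa6, which binds glutamate receptors, and 4930545L23Rik completed the 10. In all of these both mutant libraries lay above both wild-type libraries, which 16.8% of all genes tested did.

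Gm38505 (chr3:34298172-34351712, minus strand) lies within the interval of Sox2ot (chr3:34104270-34682619, plus strand), and Gm48321 (chr14:17931138-18021909, minus strand) within that of Thrb (chr14:17660261-18038090, plus strand). Whether the counting used strand is not given in the sources used here, so reads of these pairs may not be told apart. Thrb itself was level between genotypes, with a log2 fold change of -0.01 ± 0.17 (SE, 95% interval -0.38 to 0.36).

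On the lower side in the mutant, Rbfox1, a splicing factor of neurons, was at 4760, 5192, 3567 and 3674 CPM (log2 fold change -0.50 ± 0.11, SE). Dpp10, an auxiliary subunit of potassium channels, was at 5426, 5745, 4158 and 4088 CPM, and Pdcd10 at 89.3, 69.9, 35.4 and 30.6 CPM. Chrm3, a muscarinic receptor, was at 223, 198, 145 and 101 CPM. Trpm3, Ralyl, mt-Co3, Cadm2, Ssr3 and Hs6st3 made up the 10, with log2 fold changes from -1.34 to -0.42 apart from Cadm2 at -0.39. Both mutant libraries lay below both wild-type libraries in each, as in 12.1% of all genes tested. In GABA neurons too, Rbfox1, Dpp10, Chrm3, Ralyl, mt-Co3 and Cadm2 were lower in the mutant within each repeat. There Cadm2 was at 1904, 1870, 1577 and 1546 CPM, and mt-Co3 at 2694, 3156, 2455 and 1875 CPM. Pdcd10, Trpm3, Ssr3 and Hs6st3 were not lower in the mutant of both repeats in GABA neurons.

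Sst was not called between genotypes, at a log2 fold change of -0.07 ± 1.30 (SE, 95% interval -4.78 to 4.64), in the fit on genotype alone, whose spread includes the difference between repeats. With the block, which pairs the libraries of a repeat, it was -0.04 ± 0.12 (SE, 95% interval -0.30 to 0.22, adjusted p = 0.998 in edgeR). The within-repeat ratios of mutant to wild type were 1.09 and 0.961. Without the block single libraries decided the value, since leaving one out left the repeats unbalanced: it became 1.51 without wild-type repeat 2 (adjusted p = 0.00884 in edgeR) and -1.52 without TRα1+m repeat 2 (adjusted p = 0.999).

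The gene lists held 230 genes, of which 103 passed the filter on low counts. None of these was called in the fit on genotype alone, and AC149090.1, a member of the lists, was called with the block, as given above. Of 7 thyroid hormone receptors and cofactors tested, 0 lay above and 1 (Thra) below both wild-type libraries in the mutant, with a median log2 fold change of -0.05. Thra had a log2 fold change of -0.62 ± 0.34 (SE), and without TRα1+m repeat 2 of -0.12. With the block it was -0.68 ± 0.26 (SE, 95% interval -1.24 to -0.13, adjusted p = 0.727 in edgeR). Within each repeat Thra was lower in the mutant in the other sub-clusters of the 12 as well, apart from Oxytocin+, AVP neurons. In GABA neurons it was at 104, 112, 78.8 and 86.5 CPM. Of 6 response genes 1 (Klf9) lay below and none above. Slc7a8, an amino-acid transporter that also carries the hormone, was at 47.4, 64.1, 17.7 and 32.9 CPM from 17, 44, 5 and 14 UMIs. Of all genes tested 16.8% lay above and 12.1% below in this way, as given above, with a median log2 fold change of 0.0005.

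The other lists are read against the same 16.8% above and 12.1% below. Peptide processing had 2 genes above and 2 below among 12 tested, with a median of 0.05, and the Gi signalling list 1 above and 2 below among 11, with a median of -0.13. Of 4 tested genes of the GABA phenotype 1 lay above, of 8 other neuropeptides 1 above and 1 below, of 8 regional factors 1 above and 1 below, and of 7 hormone receptors 2 (Ghr and Igf1r) below. Of 5 tested interneuron genes 1 (Tacr1) lay above, and of 6 pan-neuronal genes 1 (Syt1) below. The tested immediate early gene, Homer1, overlapped between genotypes. Of 11 mitochondrially encoded genes tested 5 lay below and none above, with a median log2 fold change of -0.32. The mitochondrial share of UMIs was 0.912%, 1.01%, 0.760% and 0.822%, and mt-Co3 was at 2673, 2795, 2254 and 1938 CPM. The part of nuclear quality in this was not tested. Among the 7 neuronal genes the study names, 2 lay above both wild-type libraries in the mutant (AC149090.1 and Grm8) and 3 below (Lrrtm4, mt-Co3 and Oxt), while mt-Atp6 overlapped. Grm8 was at 812, 838, 1044 and 941 CPM and Lrrtm4 at 6590, 7098, 5389 and 6482 CPM. Oxt, at 234, 530, 159 and 14.1 CPM, did not overlap, but without the single nucleus described above wild-type repeat 2 would be at 123 CPM and the genotypes would overlap.

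Whether a genotype effect was particular to somatostatin neurons was tested against GABA neurons of the same libraries, with library as a term. Of 16488 genes, 3 were called (0.0182%), all relatively higher in mutant somatostatin neurons. Efna5 differed by 1.41 ± 0.25 on the log2 scale (SE, adjusted p = 0.000135 in edgeR): it was at 642, 514, 599 and 483 CPM in GABA neurons, with ratios of mutant to wild type of 0.934 and 0.939 within repeats, while in somatostatin neurons these ratios were 1.96 and 3.06. The share of somatostatin neurons with an Efna5 UMI at 2000 UMIs was 8.6% and 9.4% for wild-type libraries, against 19.7% and 24.4% for TRα1+m. Oligodendrocytes gave 5.1% to 8.5%, so that the wild-type share was close to that background.

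Cartpt differed by 1.82 ± 0.25 (SE, adjusted p = 4.2e-09 in edgeR). In GABA neurons it was at 66.8, 209, 70.4 and 108 CPM, with wild-type repeat 2 the highest, and in oligodendrocytes at 132, 108, 114 and 40.8 CPM. The call rests on wild-type repeat 2, without which the difference was 1.05 with an adjusted p of 1. In TRα1+m repeat 2, 23 of the 86 Cartpt UMIs of the somatostatin neurons were in a single nucleus, and without it the level would be 152 in place of 202 CPM. Gm32647, a long non-coding RNA, differed by 0.82 ± 0.18 (SE, adjusted p = 0.0351 in edgeR), with 167, 286, 361 and 456 CPM in somatostatin neurons and 593, 670, 576 and 671 CPM in GABA neurons.

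The calls for Efna5 and Gm32647 also depend on single libraries. Efna5 was called without TRα1+m repeat 1 but missed the threshold without wild-type repeat 1 (1.36, adjusted p = 0.106 in edgeR), wild-type repeat 2 (1.5, 0.0828) or TRα1+m repeat 2 (1.02, 0.729). Gm32647 was called without wild-type repeat 2 but not without wild-type repeat 1 (0.58, adjusted p = 1), TRα1+m repeat 1 (0.91, 0.0591) or TRα1+m repeat 2 (0.78, 0.351).

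All 3 calls are lost in a fit with neither library nor repeat as a term (adjusted p = 0.9999 in edgeR for each), in which the log2 differences were of like size, at 1.41 for Efna5, 1.74 for Cartpt and 0.83 for Gm32647. Against NPY/AgRP neurons in place of GABA neurons, Efna5 and Cartpt were called again and Gm32647 was not (adjusted p = 0.980), and against CART Neurons_1 all 3 were. These comparisons share the somatostatin libraries. For Cartpt they also share a high wild-type repeat 2 in the compared type, as in GABA neurons. Cartpt was at 56.6, 207, 40.9 and 37.0 CPM in NPY/AgRP neurons and at 154, 596, 137 and 227 CPM in CART Neurons_1.

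**Figure D5:**
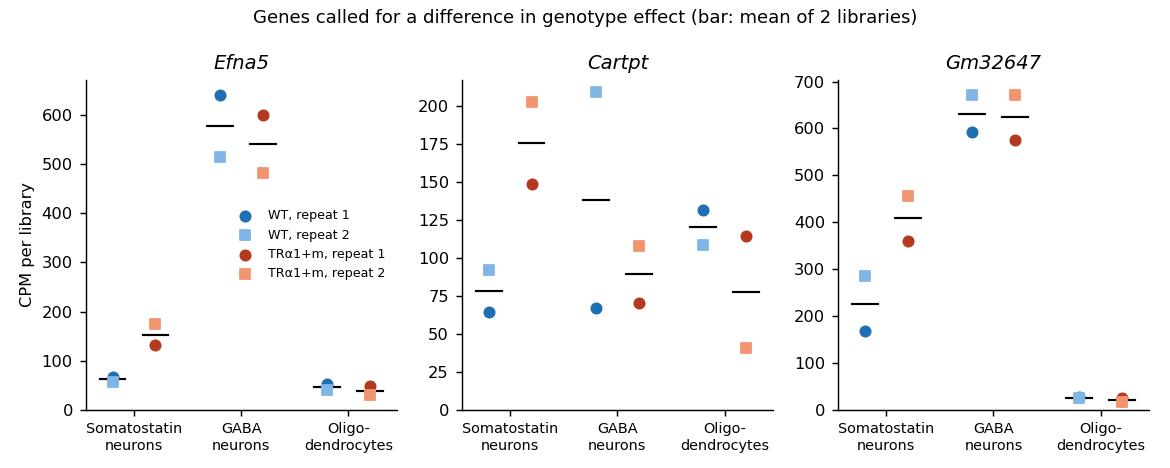
CPM of Efna5, Cartpt and Gm32647 per library in somatostatin neurons, GABA neurons and oligodendrocytes, wild type (blue) beside TRα1+m (red), with a bar at the mean of 2 libraries, on linear axes that start at 0. In somatostatin neurons both mutant libraries lie above both wild-type libraries for each gene, while Cartpt in oligodendrocytes, between 40.8 and 132 CPM, overlaps the neurons.

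More genes were called between the experimental repeats than between genotypes. This contrast was chosen after the Sst levels had been seen. In the fit with genotype and repeat, 141 of 6450 genes (2.19%) differed between repeats in edgeR, 54 higher and 87 lower in repeat 2, and DESeq2 called 20. Sst had the smallest adjusted p (4.0e-08 in edgeR), with a log2 difference of 2.20 ± 0.13 (SE). Tmem158, Itm2c and Atp6v0c were also higher in repeat 2, by 2.22, 1.38 and 1.08 on the log2 scale. Lower in repeat 2 were the metallothioneins Mt3 and Mt1, the peptides Hcrt and Avp, and the ribosomal protein genes Rps29, Rpl41, Rpl37a and Rpl37, by log2 differences of -2.29 to -1.55. For Hcrt, wild-type repeat 1 would be at 142 in place of 343 CPM without the single nucleus described above, against 78.7 CPM in wild-type repeat 2. For Mt3 the levels were 352, 81.6, 326 and 58.8 CPM, with no overlap between repeats, and oligodendrocytes carried 769 and 231 CPM in the wild-type repeats 1 and 2. The repeats differ in mice and libraries, which cannot be told apart, and other differences between them are not given in the sources used here.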

How the data were processed

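Nuclei of adult mouse hypothalamus were sequenced with the 10x Genomics 3' chemistry (version 3.1). Alignment and UMI counting were done by the authors in Cell Ranger 5.0.1 on mm10 (GRCm38) with intronic reads included, and they kept nuclei by limits on counts, features, mitochondrial share and doublet score before they clustered in Seurat and harmonised sub-clusters across repeats. The deposited matrices hold unnormalised UMI counts of 32285 genes, with an annotation table of cluster, sub-cluster, genotype and repeat. The deposited labels were used as they stand, and doublets were treated only by the authors.

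Counts were summed per library and sub-cluster, since the pool of mice is the replicate. Labels do not tell single mice apart, so p-values of the fit on genotype alone measure the spread between pools. With the repeat as a block they measure only the spread that is left once the repeats are set apart. With library as a term they measure the spread over libraries of the difference between the cell types. Sums were tested in edgeR 4.0.16 (R 4.3.3) with filterByExpr, TMM factors, a robust quasi-likelihood F-test, two-sided, and Benjamini-Hochberg adjustment over all genes tested. The difference from GABA neurons was an interaction with library as a term. Shares were compared by exact permutation over libraries. Thinned shares are hypergeometric expectations at 2000 UMIs, computed without random draws (scipy 1.17.1). On simulated counts the genotype test recovered 76% of genes changed 2-fold and 8% of those changed 1.5-fold, with 5 false calls among 6542 genes. The test of the difference from GABA neurons recovered 24% and 2%, with 2 false calls among 16470 genes. In this simulation the changed genes were drawn from abundant genes only, every gene had the same dispersion, and the repeats did not differ. The recovered shares therefore do not give the power of these tests on the real counts.

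Named genes were the called genes, filled to 10 in each direction by the smallest p among those moving the same way in both repeats, the most abundant of each list, and the leading genes of the sub-cluster. Further list members, such as Cadps2, Otp, Dlx6os1, Ghr and Crym, were singled out after their values were seen. The members, lists and rules were chosen with earlier results of these data known. The authors' methods give each repeat a library of each genotype, so the repeat pairs the libraries. The differences between repeats correlated between genotypes across genes (Pearson r 0.350, 6450 genes, which are not independent). Coordinates are from GENCODE M21, and the promoter from RefSeq. The alternatives comprised DESeq2 1.42.0, RLE factors, the replicate block, testing without a low-count filter, each library left out, bias-adjusted deviances, equal numbers of nuclei, a log2 fold change above 0.5, other comparison types, and other UMI thresholds and denominators. A few list members, and the tally of the hormone transport and metabolism list, are not reported here.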

Additional observations from a re-analysis of the deposited data

Results flagged for a closer look

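The genotype effect in somatostatin neurons differed from that in GABA neurons by 1.41 (log2) for Efna5, 1.82 for Cartpt and 0.82 for Gm32647, each past an adjusted p of 0.05 in edgeR's test of the difference. Without wild-type repeat 2 the Cartpt difference was 1.05 and was not called, and Efna5 was called when TRα1+m repeat 1 was left out but not when any other library was. Gm32647 was called when wild-type repeat 2 was left out but not when any other library was, and not against NPY/AgRP neurons (0.34, adjusted p = 0.980 in edgeR).

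Sst moved opposite ways between repeats in 2 cell types. It was higher in repeat 2 by 2.24 on the log2 scale in somatostatin neurons, averaged over genotypes, with 2.33 for wild-type and 2.15 for TRα1+m libraries. In oligodendrocytes the same difference was -1.89, with -1.78 for wild-type and -2.00 for TRα1+m libraries. The difference between the cell types was not tested.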

How the results depend on the processing

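The count of genes called between genotypes, 0 in edgeR, was 1 without the filter on low counts, 2 with the replicate block, and between 1 and 9 with a library left out: 1 without wild-type repeat 1, 3 without wild-type repeat 2, and 9 without either mutant library. In those fits the lone library of a genotype is taken to vary as the pair of the other does. It stayed at 0 with RLE factors, DESeq2, bias-adjusted deviances, equal numbers of nuclei and the limit on fold change. Sst reversed with equal numbers of nuclei (0.16) and ranged from -1.52 to 1.51 with a library left out, and Thrb was 0.016 with equal numbers and ranged from -0.083 to 0.048. The count of genes whose genotype effect differed from GABA neurons, 3, was 11 against NPY/AgRP neurons, 6 against CART Neurons_1, 5 with RLE factors, 0 with neither library nor repeat as a term, and 2 to 3 with a library left out. The cause of these shifts was not tested. The number of somatostatin neurons ranged from -0.73 to 0.16 (log2) with a library left out and was -0.25 with the replicate block. The genotype difference in the share with at least 10 Sst UMIs, -5.63 percentage points, was 0.336 at a threshold of 20 and ranged from -19.5 to 8.24 with a library left out. Among all Neurons_1 nuclei it was 0.0566 points, -0.0967 over all annotated nuclei, and -1.41 to 1.52 with a library left out. The count of genes that differed between repeats was 141 in edgeR and 20 in DESeq2. Over the 20 genes named as nearest to the genotype threshold, Sst, Thra, Thrb and the 3 genes that differed from GABA neurons, 235 alternative values kept direction and side of the threshold, 11 lost and 5 gained a call, and 6 reversed, of which 1 (Sst without wild-type repeat 2) also gained a call. Of the other genes named, AC149090.1, Oxt, Hcrt, Mt1 and mt-Atp6 were called between genotypes with a library left out (lowest adjusted p = 0.000146, 1.7e-21, 0.00653, 0.00599 and 0.00514 in edgeR). With the replicate block no other call changed. With 282614 to 686291 UMIs per library, genes under about 10 CPM rest on few molecules.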

Other observations

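Of the 20 genes named as nearest to the genotype threshold, 5 lie on chromosome 3 (Sox2ot, Gm38505, Pdcd10, Ralyl and Ssr3), where 4.93% of the genes tested lie. This was noticed after the values were seen, Sox2ot and Gm38505 overlap, and no test was made.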
